A study of Mus musculus with 3 samples.

Results

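The genes described here encode translation initiation factors, their close relatives and the kinases and binding proteins named after them. They were chosen by symbol: every protein-coding gene of the GRCm38.p6 RefSeq gene table whose symbol begins with Eif and a digit, which gave 56 of 21887 protein-coding genes. Chromatin of mouse alveolar type II (AT2) cells, the surfactant-making epithelial cells of the lung, was sequenced after immunoprecipitation of ETV5, a transcription factor of the ETS family, or of H3K4me3, the trimethylated lysine 4 of histone H3 found around active gene starts. Each antibody had 1 library, and the third library was input chromatin with no antibody. All cells came from C57BL/6 mice aged 10 to 12 weeks, with no treatment or altered allele named. The labels do not give the number or sex of the mice or say how the AT2 cells were purified, so each library may pool animals, and no comparison across replicates could be made.

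The unit of measurement was the called peak, a stretch of genome where the immunoprecipitated fragments outnumbered those of the input. The ETV5 list held 31165 peaks from 5715049 filtered reads, and the H3K4me3 list held 15134 peaks from 34907608. A peak was assigned to every gene within 5 kb of it. Its pileup is the number of fragments over its summit, and pileups of ETV5 and H3K4me3 were not compared with each other because the depths differ. Ranges after a pileup are exact 95% Poisson intervals and those after a share of genes are exact (Clopper-Pearson) 95% binomial intervals, and both cover counting error only. In such bulk libraries a lower pileup from fewer cells carrying the mark and one from less signal per cell cannot be told apart.

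The labelled cell type was checked with marker genes. All 10 AT2 genes, among them Sftpc, Abca3 and Nkx2-1, had both ETV5 and H3K4me3, with a median H3K4me3 pileup of 370.5. H3K4me3 was present at 0 of 4 airway secretory, 0 of 4 basal and 0 of 5 mesenchymal genes, and ETV5 at 2, 1 and 3 of them. It was present at 2 of 6 endothelial genes (median pileup 31.5, ETV5 at 4 of them) and at 4 of 4 ciliated genes (median 137, ETV5 at 4). Of 6 leukocyte genes, 2 had both marks: Spi1, with an H3K4me3 pileup of 38, and Cd68. The highest peaks of Cd68 are nearest to its neighbour Eif4a1. Its lower peaks, with pileups of 31 for ETV5 and 167 for H3K4me3, are nearest to Mpdu1. The pan-leukocyte gene Ptprc had neither mark. Of 5 genes of the alveolar type I cell, all 5 had ETV5 and 4 had H3K4me3, with a median H3K4me3 pileup of 211.5. The part of other cells in the values below was not tested.

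Translation initiation assembles a ribosome at the start codon of an mRNA. The cap-binding protein eIF4E, the scaffold eIF4G and the helicase eIF4A prepare the mRNA, while eIF1, eIF1A, eIF3 and eIF2 with the initiator tRNA load the small ribosomal subunit, and eIF5 and eIF5B act as the start codon is fixed and the large subunit joins. Phosphorylation of eIF2 by stress-sensing kinases and sequestration of eIF4E by binding proteins are the main brakes on the pathway. AT2 cells, as secretory cells with a heavy output of surfactant proteins and lipids, depend on protein synthesis, and ETS factors are known to bind a GGAA core that is common near the starts of housekeeping genes.

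The promoter sequences below are first those of the 4 genes with the highest ETV5 pileup at their start. Next are the 2 genes with H3K4me3 but no ETV5 at their start for which a sequence was held. Last are 6 genes in which an ETS motif lay within 20 bp of the ETV5 summit. The sequences shown for Eif1 and Eif2s1 do not reach their ETV5 summits. The last set was chosen after the values were seen. All are RefSeq GRCm38.p6 sequences, written 5′ to 3′ on the strand of the gene, and capitals mark the letters CCGGAAG or, where the motif lies on the opposite strand, CTTCCGG. Of the first 6 sequences, none holds the motif, and these are Eif4a2 (chr16:23107318-23107497, plus strand), Eif1 (chr11:100319799-100319978, plus), Eif2s1 (chr12:78861979-78862101, plus), Eif4a3 (chr11:119300014-119300193, minus), Eif2ak2 (chr17:78882543-78882602, minus) and Eif2s3y (chrY:1010445-1010624, plus). The other 6 are Eif3g (chr9:20898581-20898664, minus), Eif2b2 (chr12:85219421-85219510, plus), Eif4ebp2 (chr10:61452660-61452823, minus), Eif2ak1 (chr5:143817732-143817821, plus), Eif3c (chr7:126566357-126566434, minus) and Eif1ad (chr19:5366783-5366842, plus).
Eif4a2: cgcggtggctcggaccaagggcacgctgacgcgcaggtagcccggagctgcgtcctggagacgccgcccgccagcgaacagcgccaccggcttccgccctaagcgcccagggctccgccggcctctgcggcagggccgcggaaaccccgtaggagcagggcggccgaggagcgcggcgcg
Eif1: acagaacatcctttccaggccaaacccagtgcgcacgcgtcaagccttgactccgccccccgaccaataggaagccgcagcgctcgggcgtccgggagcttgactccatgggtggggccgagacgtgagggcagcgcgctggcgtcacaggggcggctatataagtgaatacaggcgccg
Eif2s1: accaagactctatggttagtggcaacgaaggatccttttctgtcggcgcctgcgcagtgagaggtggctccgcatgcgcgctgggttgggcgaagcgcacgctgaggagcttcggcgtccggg
Eif4a3: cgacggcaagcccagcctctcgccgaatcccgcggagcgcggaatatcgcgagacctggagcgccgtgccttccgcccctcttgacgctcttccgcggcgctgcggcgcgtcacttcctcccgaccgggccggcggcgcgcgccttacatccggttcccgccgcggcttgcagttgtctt
Eif2ak2: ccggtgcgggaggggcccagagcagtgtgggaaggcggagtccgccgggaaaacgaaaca
Eif2s3y: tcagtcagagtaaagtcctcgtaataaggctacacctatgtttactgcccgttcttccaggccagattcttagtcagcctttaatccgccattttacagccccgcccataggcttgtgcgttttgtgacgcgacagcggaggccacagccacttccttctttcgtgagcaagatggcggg
Eif3g: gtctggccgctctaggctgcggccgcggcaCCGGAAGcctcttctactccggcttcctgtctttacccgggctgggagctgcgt
Eif2b2: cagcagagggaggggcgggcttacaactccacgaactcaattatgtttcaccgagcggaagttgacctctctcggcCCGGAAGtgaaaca
Eif4ebp2: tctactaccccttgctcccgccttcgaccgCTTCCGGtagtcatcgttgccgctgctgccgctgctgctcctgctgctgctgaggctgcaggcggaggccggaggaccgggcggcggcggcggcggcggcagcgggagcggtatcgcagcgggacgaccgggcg
Eif2ak1: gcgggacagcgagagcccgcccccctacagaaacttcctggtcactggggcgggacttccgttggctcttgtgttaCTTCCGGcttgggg
Eif3c: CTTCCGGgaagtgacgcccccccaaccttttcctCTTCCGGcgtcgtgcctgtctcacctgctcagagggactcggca
Eif1ad: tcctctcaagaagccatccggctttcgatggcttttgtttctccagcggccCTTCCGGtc

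Nearly all of these genes had both marks. ETV5 was called within 5 kb of 51 of 56 genes, 91.1% (80.4 to 97.0), where it was called at 63.2% of all protein-coding genes. H3K4me3 was called at 54 of 56, 96.4% (87.7 to 99.6), against 59.8% of all genes. Both marks were present at 51 genes, against 56.9% of all genes. Among genes with H3K4me3, however, ETV5 was found at 51 of 54 initiation factor genes, 94.4% (84.6 to 98.8), and at 95.2% of all genes, a share inside that interval.

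The size of the ETV5 peaks stood above the middle of the genome. The highest ETV5 peak of each gene had a median pileup of 48 (quartiles 35.5 to 74, range 14 to 133, 51 genes), and that of all genes with a peak had a median of 31 (quartiles 18 to 53). When only genes with both marks were counted, the median over all genes was 34 (quartiles 21 to 57, 12453 genes). The quartiles overlap, and the intervals of 22 of the 51 genes included 48, while 18 lay above it and 11 below. Peak length had a median of 1033 bp against 787 bp, and the authors' deposited fold enrichment a median of 22.6 against 14.3.

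H3K4me3 varied less among these genes than ETV5, relative to its median. Its median pileup was 301.5 (quartiles 234 to 346.8, range 81 to 432, 54 genes), against 244 (quartiles 164 to 305) over all marked genes. Its median peak length was 1608 bp against 1448 bp. Of the 2 pileups, neither fixed the other closely. Across 51 genes Spearman's rho between them was 0.319 and Pearson's r was 0.303, and across all 12453 genes with both marks they were 0.485 and 0.371. These are correlations across genes within 1 library per mark, and genes are not independent replicates. Eif4h, a cofactor of the eIF4A helicase, had the highest H3K4me3 pileup, 432 (392 to 475), with an ETV5 pileup of only 35 (24.4 to 48.7), while Eif1 had 227 (198 to 259) for H3K4me3 and 129 for ETV5.

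**Figure D1:**
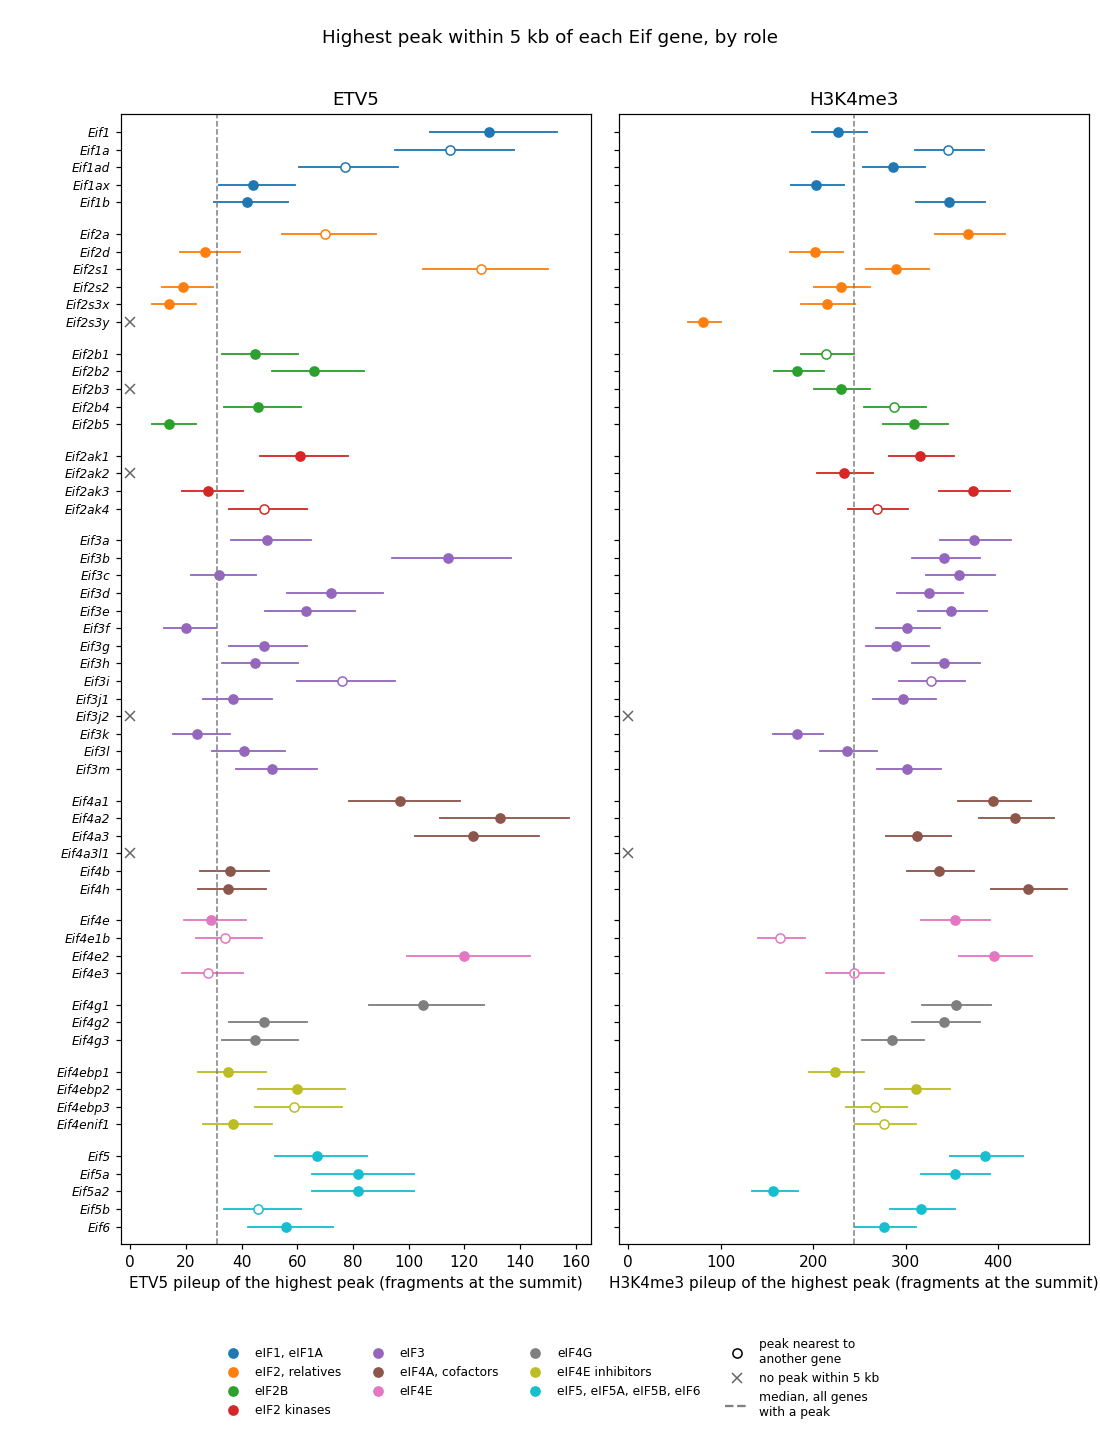
Pileup of the highest ETV5 (left) and H3K4me3 (right) peak within 5 kb of each of the 56 genes, in fragments at the summit on linear axes, grouped and coloured by role. Bars are exact 95% Poisson intervals, open circles mark peaks nearest to another gene, crosses mark genes with no peak and dashed lines are the medians over all genes with a peak (31 and 244). ETV5 spans 14 to 133, and the middle 50% of H3K4me3 values lie between 234 and 346.8.

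**Figure D2:**
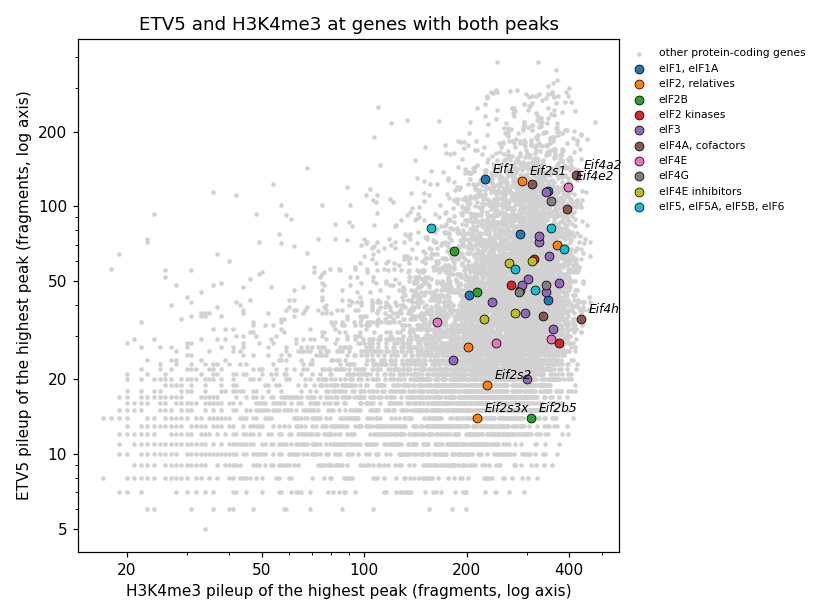
ETV5 pileup (vertical, log axis) against H3K4me3 pileup (horizontal, log axis) of the highest peaks of each gene, in fragments at the summit, for 51 initiation factor genes (coloured by role) and the other protein-coding genes with both marks (grey). The coloured points lie mostly toward the right of the grey cloud and range in height from Eif2b5 and Eif2s3x at 14 to Eif4a2 at 133. Over all genes with both marks the ETV5 pileup ranges from 5 to 381.

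The factors of start codon selection were among the strongest. All 5 genes had both marks, with a median ETV5 pileup of 77 (lowest 42, highest 129). Eif1, whose product scans for the start codon and rejects mismatches, reached 129 (108 to 153) at chr11:100319611-100320780, a fold of 71.0, the highest fold of any gene here, with its summit 471 bp inside the gene. Eif1a, an autosomal gene for eIF1A, had 115 (94.9 to 138) over 1734 bp, but that summit lay 40 bp from an end of Tmed7 and 209 bp from Eif1a. Eif1ad, an eIF1A domain protein, had 77 (60.8 to 96.2), with the summit 25 bp from an end of Banf1 and 38 bp from its own. The remaining pair were similar, with 44 (32.0 to 59.1) at the X-linked eIF1A gene Eif1ax and 42 (30.3 to 56.8) at Eif1b, an Eif1 paralogue.

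Within the ternary complex the subunits differed widely. Eif2s1 encodes the alpha subunit of eIF2, the target of the stress kinases, and had an ETV5 pileup of 126 (105 to 150) at chr12:78861159-78862307. The beta subunit gene Eif2s2 had 19 (11.4 to 29.7), and the X-linked gamma subunit gene Eif2s3x had 14 (7.65 to 23.5). These intervals do not meet that of Eif2s1. The Eif2s1 peak, however, overlaps both Eif2s1 and its neighbour Atp6v1d, a subunit gene of the vacuolar proton pump: its summit lies inside Atp6v1d, 367 bp from the nearer end of that gene, and 431 bp from Eif2s1. H3K4me3 differed less, with pileups of 290 (258 to 325), 230 (201 to 262) and 215 (187 to 246).

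The Y-linked copy of the gamma subunit gene stood apart. Eif2s3y had no ETV5 peak, and its H3K4me3 pileup of 81 (64.3 to 101) over 1511 bp was the lowest of the 54. ETV5 and H3K4me3 pileups of X-linked genes were lower in general: over all genes with a peak the medians were 16 on X and 31 on autosomes for ETV5, and 146 and 248 for H3K4me3. The sources used here do not say how reads that fit both Eif2s3x and Eif2s3y were placed. Among the relatives of eIF2, Eif2a, an alternative initiator tRNA carrier, had 70 (54.6 to 88.4) with the summit at an end of Serp1 and 63 bp after the start of Eif2a, and Eif2d had 27 (17.8 to 39.3).

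**Figure D3:**
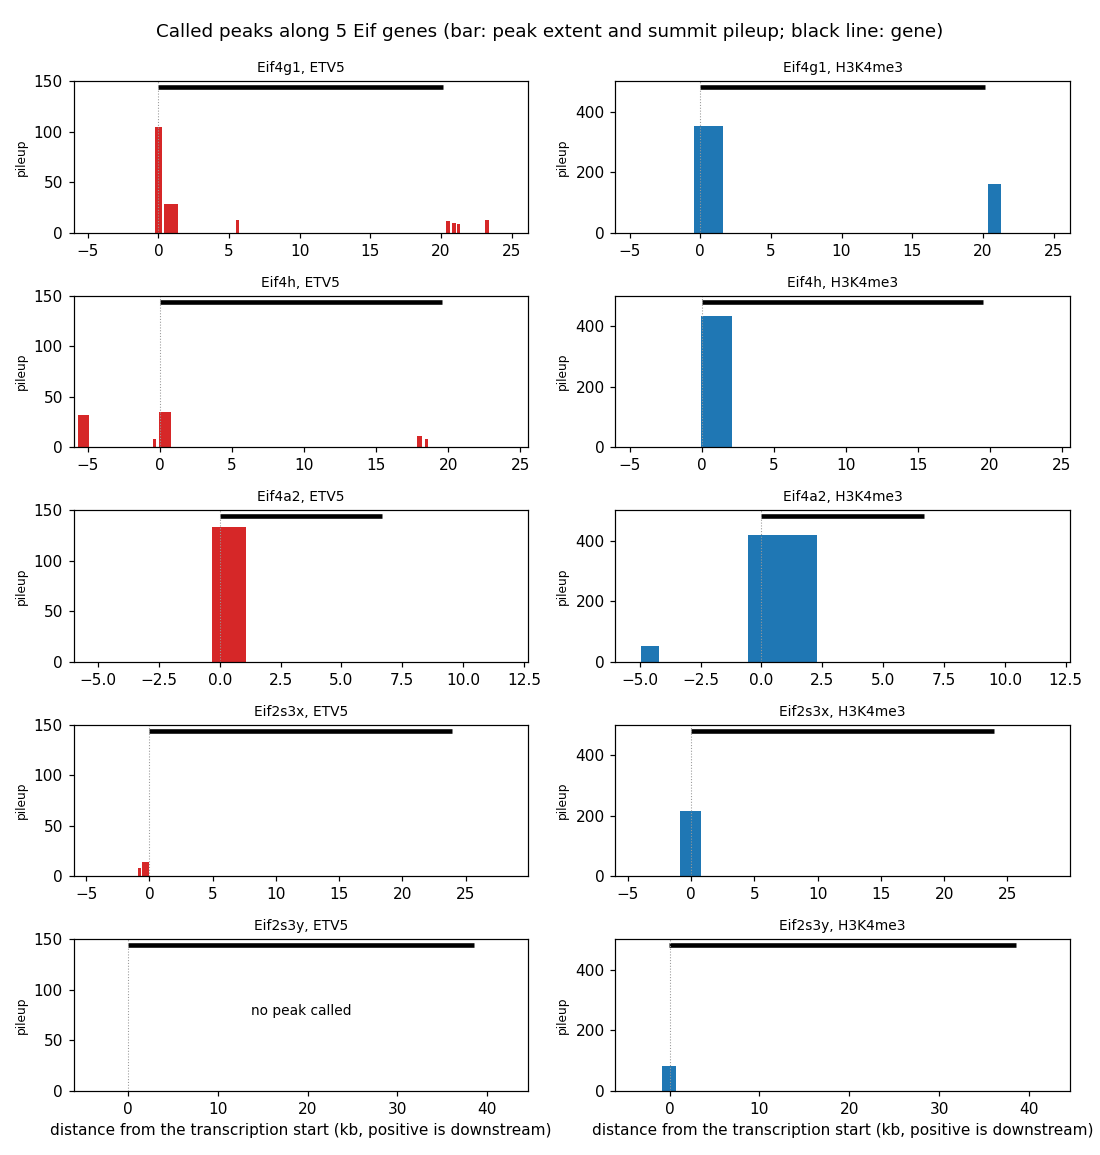
Called ETV5 (left, red) and H3K4me3 (right, blue) peaks along Eif4g1, Eif4h, Eif4a2, Eif2s3x and Eif2s3y. The horizontal axis is distance from the transcription start in kb, each bar spans a peak and its height is the summit pileup in fragments, and the black line is the gene. Eif4a2 holds 1 wide ETV5 peak at its start, Eif4g1 holds 7 ETV5 peaks, and Eif2s3y holds none.

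The guanine nucleotide exchange factor eIF2B, which recharges eIF2 and is the step blocked by eIF2 phosphorylation, had ETV5 at 4 of its 5 subunit genes. Eif2b2 led with 66 (51.0 to 84.0), followed by Eif2b4 with 46 (33.7 to 61.4) and Eif2b1 with 45 (32.8 to 60.2). Eif2b5, the catalytic epsilon subunit gene, had 14 (7.65 to 23.5) beside an H3K4me3 pileup of 309 (276 to 345). Eif2b3 had no ETV5 peak and an H3K4me3 peak of 230 (201 to 262) over 1083 bp. So the genes of this 5-subunit complex ranged from no call to 66, and the intervals of Eif2b2 and Eif2b5 do not meet.

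The 4 eIF2 kinases respond to different stresses. Eif2ak1, the haem-regulated kinase, had an ETV5 pileup of 61 (46.7 to 78.4), and Eif2ak3, the kinase PERK of the unfolded protein response, had 28 (18.6 to 40.5). Eif2ak4, the amino acid sensor GCN2, had 48 (35.4 to 63.6), but that peak lay 86 bp from Srp14 and 4376 bp beyond Eif2ak4, whose own start held a peak of 26 (17.0 to 38.1). Eif2ak2, the double-stranded RNA sensor PKR, had no ETV5 peak within 5 kb, although its H3K4me3 pileup of 233 (204 to 265) over 1275 bp was close to that of Eif2ak4 at its start, 232 (203 to 264). PERK had the highest H3K4me3 pileup of the group, 373 (336 to 413).

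The scaffold complex eIF3 binds the small subunit and is the largest of the factors. ETV5 was called at 13 of 14 of its genes, with a median of 48 and a range of 20 to 114. Eif3b, an RNA-binding core subunit gene, was highest with 114 (94.0 to 137) over 1359 bp, and it also carried the longest H3K4me3 peak of all 54 genes, 3008 bp (chr5:140418033-140421040). Eif3i followed with 76 (59.9 to 95.1), its summit 20 bp from Tmem234 and 41 bp from Eif3i. At the low end Eif3f had 20 (12.2 to 30.9) and Eif3k 24 (15.4 to 35.7), and their intervals do not meet that of Eif3b.

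The other eIF3 genes filled the range between. Eif3d, which can bind the cap of selected mRNAs, had 72 and Eif3e 63, Eif3m had 51, Eif3a, the largest subunit gene, 49, Eif3g 48, Eif3h 45, Eif3l 41, Eif3j1 37 and Eif3c 32. Eif3j2 had neither mark. It is a close copy of Eif3j1, and the placing of reads shared by the copies is not stated either, so the absence of a call there is uncertain.

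The helicase genes Eif4a1, Eif4a2 and Eif4a3 were among the genes with high ETV5 peaks. Eif4a2, which encodes an eIF4A paralogue, had 133 (111 to 158) at chr16:23107146-23108556, a fold of 60.3 over 1411 bp, with the summit 17 bp after its start. Eif4a3, the helicase of the exon junction complex, had 123 (102 to 147) at chr11:119299427-119300617, a fold of 43.2, with the summit 47 bp before its start. Eif4a1, the main helicase of initiation, had 97 (78.7 to 118) over 2007 bp, and this peak also lies within 5 kb of Cd68 and Senp3. The cofactors were lower, with 36 (25.2 to 49.8) at Eif4b and 35 (24.4 to 48.7) at Eif4h, intervals that meet none of the 3 helicases.

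H3K4me3 did not part helicases from cofactors. Its pileup was 418 (379 to 460) at Eif4a2, with a 2872 bp peak, 395 (357 to 436) at Eif4a1 and 312 (278 to 349) at Eif4a3, and it was 336 (301 to 374) at Eif4b and 432 at Eif4h. Eif4a3l1, a close copy of Eif4a3 with a promoter entry of its own, had neither mark, with the same uncertainty about shared reads.

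Among cap-binding proteins 1 gene stood apart. Eif4e2, the 4EHP gene whose product represses bound mRNAs, had 120 (99.5 to 144) at chr1:87213663-87214605 with the summit 18 bp after its start, while Eif4e itself had 29 (19.4 to 41.7). Their H3K4me3 pileups, 396 (358 to 437) and 353 (317 to 392), have intervals that meet. The other two have no high peak at their own ends: the peak of Eif4e1b, 34 (23.6 to 47.5), lies 1100 bp beyond that gene and 457 bp from Tspan17, and the peak of Eif4e3, 28 (18.6 to 40.5), lies inside the long Eif4e3 gene, 26240 bp from its nearer end and 25734 bp from Gpr27.

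The scaffold eIF4G joins the cap complex to eIF3. Eif4g1 had an ETV5 pileup of 105 (85.9 to 127) in a narrow peak of 542 bp with a fold of 65.3, and the relatives Eif4g2 and Eif4g3 had 48 (35.4 to 63.6) and 45 (32.8 to 60.2). Eif4g1 had the most ETV5 peaks of all, 7, but the start peak held most of the height. Its other peaks in the gene had pileups of 29 and 13, and 4 more, of 9 to 13, lay past its end and were nearest to Fam131a.

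The genes of the eIF4E inhibitors, which hold eIF4E away from eIF4G, had ETV5 pileups of 35 to 60. Eif4ebp2 had 60 (45.8 to 77.2), Eif4ebp1, a target of mTOR signalling, had 35 (24.4 to 48.7), and Eif4enif1, the eIF4E transporter, had 37 (26.1 to 51.0). The 59 (44.9 to 76.1) assigned to Eif4ebp3 comes from a peak 42 bp from Sra1, also within 5 kb of Apbb3, and 3945 bp from Eif4ebp3, which had no peak of its own within 1 kb.

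The factors of subunit joining and later steps all had both marks, with a median ETV5 pileup of 67. Eif5a and Eif5a2, paralogues that carry the hypusine residue and act mainly in elongation, each had 82 (65.2 to 102). Their H3K4me3 differed: 353 (317 to 392) over 2007 bp at Eif5a, and 157 (133 to 184) over 1141 bp at Eif5a2, the lowest on any autosome in the set. Eif5, the activator of eIF2 GTP hydrolysis, had 67 (51.9 to 85.1) and Eif6, an anti-association factor of the large subunit, 56 (42.3 to 72.7). The peak of 46 (33.7 to 61.4) at Eif5b lay 1045 bp before its start and 329 bp from Txndc9, and a separate peak of 25 (16.2 to 36.9) lay 230 bp after the start, both under an H3K4me3 peak of 2843 bp.

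The highest ETV5 pileups, then, fell in several of the groups, although the summit assigned to Eif2s1 lies inside Atp6v1d. The 5 highest pileups were at Eif4a2, Eif1, Eif2s1, Eif4a3 and Eif4e2, and each exceeded the value of over 95% of all genes with a peak. They cannot be ranked among themselves: 7 genes, those 5 with Eif1a and Eif3b, had a pileup inside the interval of the highest. The 5 lowest were Eif2b5, Eif2s3x, Eif2s2, Eif3f and Eif3k, and the interval of the last of these begins at 15.4 fragments.

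Most genes had few ETV5 peaks. There were 93 different ETV5 peaks and 67 H3K4me3 peaks within 5 kb of the set. A single ETV5 peak was found at 26 genes, 2 peaks at 16 and 3 or more at 9. The 25 genes with at least 2 make 44.6% (31.3 to 58.5), against 37.0% of all genes, which lies within that interval. Eif4h had 5 peaks, including one of 32 (21.9 to 45.2) whose summit lay 5395 bp before its start with no H3K4me3 peak over it.

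The highest ETV5 peak overlapped an H3K4me3 peak at 50 of 51 genes, 98.0% (89.6 to 99.95), against 84.6% of all genes with ETV5. These sets are unlike, as all 51 genes had H3K4me3 within 5 kb. Of the 13840 genes with ETV5, 12453 had H3K4me3 within 5 kb and 11715 had the overlap. The exception was Eif1ax: its ETV5 peak at chrX:159371792-159372096 ended just before the H3K4me3 peak that began at position 159372102, and a lower ETV5 peak of 23 (14.6 to 34.5) lay inside it. Of all 93 ETV5 peaks, 68 overlapped H3K4me3 and 25 did not. The same share over all ETV5 peaks is not given here, so this count has no comparison.

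Neighbouring genes share part of this signal. At 20 of 51 genes, 39.2% (25.8 to 53.9), the highest ETV5 peak also lay within 5 kb of another protein-coding gene, against 44.4% of all genes, a share inside that interval. The summit was nearest to an end of the gene itself at 41 of 51, 80.4% (66.9 to 90.2), against 77.5%. The 10 others were Eif1a, Eif1ad, Eif2a, Eif2s1, Eif2ak4, Eif3i, Eif4e1b, Eif4e3, Eif4ebp3 and Eif5b, described above. When each peak was given only to the nearest gene, 7 of them kept no ETV5 peak, and Eif2ak4, Eif4e3 and Eif5b fell to 26, 8 and 25. The median pileup was 52 at the 20 genes with a shared peak and 48 at the 31 without, and over all genes it was 37 and 26.

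Summit positions were measured from the transcription starts of 44 genes that have a promoter entry. ETV5 lay within 1 kb of a start at 41 of 44, 93.2% (81.3 to 98.6), against 55.7% of all such genes. That background includes genes without H3K4me3. Among genes with H3K4me3 within 1 kb of the start used, ETV5 lay near a start at 41 of 43. Over all genes it did so at 8983 of 9540, so no excess is seen in that comparison. The median distance from summit to start was 69 bp against 135 bp over all genes, with 22 of 41 summits within 100 bp, 53.7% (37.4 to 69.3), against 39.8%. Entries were not held for Eif1a, Eif2b3, Eif3e, Eif3h, Eif3i, Eif3j2, Eif4e1b, Eif4e3, Eif4ebp1, Eif4ebp3, Eif4g2 and Eif6.

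The summits of the marks lay at different distances from the start. Where a gene has several annotated starts, the one nearest to the ETV5 summit was used for both marks. That choice shortens ETV5 distances at such genes, but not those of H3K4me3. The ETV5 summit lay at a median of 26 bp after the start (quartiles 47 bp before to 103 bp after), and the H3K4me3 summit at 269 bp after it (199 to 350). At 32 of 41 genes, 78.0% (62.4 to 89.4), the H3K4me3 summit was downstream of the ETV5 summit, against 70.3% of all genes. No H3K4me3 summit lay within 100 bp of a start, 0 of 43, which allows a share of up to 8.22%, against 5.87% of all genes.

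The H3K4me3 summit lay upstream of the start used at 5 of 43 genes: Eif2b1 (212 bp), Eif2a (270 bp), Eif1ad (284 bp), Eif2b4 (412 bp) and Eif5a (421 bp). Eif5a has 6 annotated starts, and its H3K4me3 summit lies inside the gene, 907 bp from the nearer end. The summits of the others lie outside their genes. At all 5 the H3K4me3 peak was also within 5 kb of another protein-coding gene, which held for 11 of the 38 genes with the summit downstream, 28.9%. The neighbours were Gtf2h3, Serp1, Banf1, Snx17 with Zfp513, and Gps2. Over all genes the shares were 66.0% with the summit upstream and 35.2% with it downstream.

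**Figure D4:**
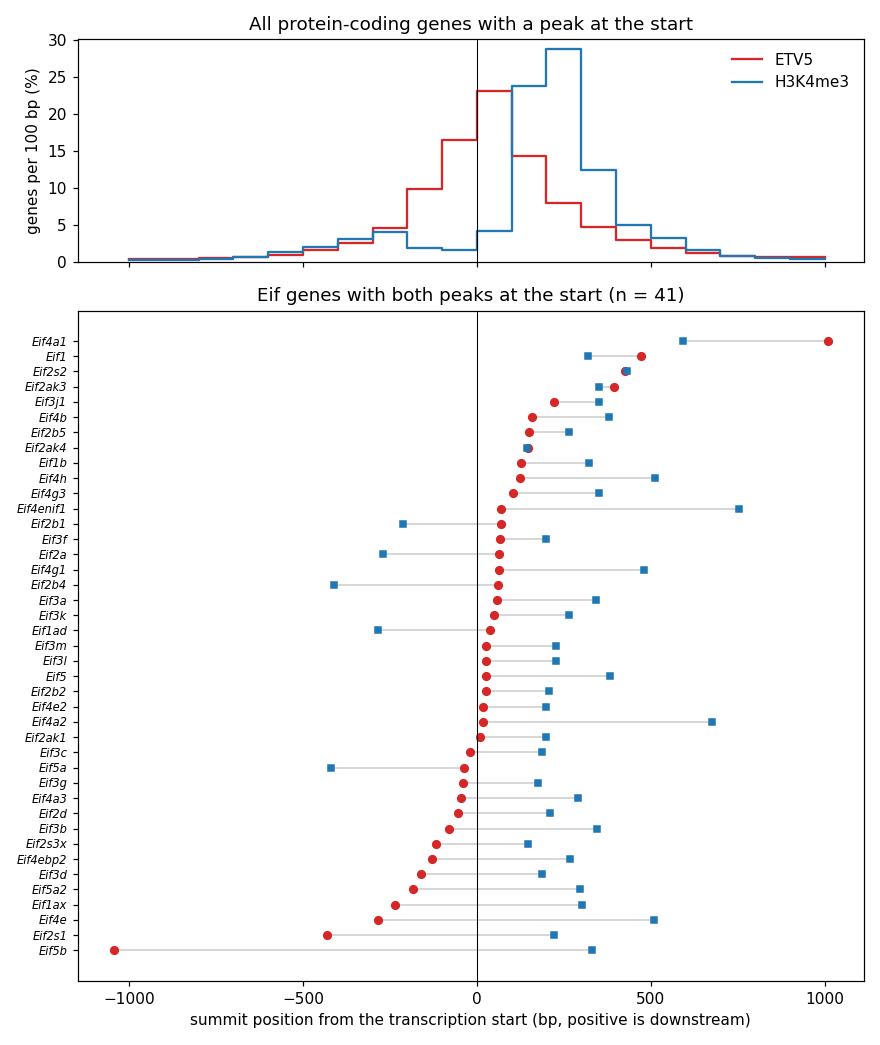
Position of the ETV5 (red) and H3K4me3 (blue) summit from the transcription start, in bp, positive downstream. The upper panel gives the percentage of all protein-coding genes with a peak per 100 bp, and the lower panel joins the summits of each of 41 initiation factor genes with both. In both panels ETV5 summits gather at the start and H3K4me3 summits farther downstream, and 5 blue squares lie to the left of the start.

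The ETS motif CCGGAAG, on either strand, was sought in the 300 bp from 250 bp before to 50 bp after each start. It was found at 16 of 44 genes, 36.4% (22.4 to 52.2), against 12.9% of all genes with a window. Among genes with ETV5 within 1 kb of the start it was found at 16 of 41, 39.0% (24.2 to 55.5), against 21.0%, a smaller gap than over all windows. The 16 were Eif1ad, Eif1ax, Eif1b, Eif2ak1, Eif2b2, Eif2b4, Eif3c, Eif3d, Eif3g, Eif3l, Eif3m, Eif4e2, Eif4ebp2, Eif4enif1, Eif5a and Eif5a2.

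The summit and the motif were often close. In 13 genes both fell in the window of the same start, and the median distance between them was 16 bp, against 31.5 bp over all 1418 such genes. They were within 20 bp at 7 of 13, 53.9% (25.1 to 80.8), against 34.2%, a share inside that interval. In the sequences above, the distance was 1 bp at Eif3g, 6 bp at Eif2b2, 8 bp at Eif4ebp2, 10 bp at Eif2ak1, 12 bp at Eif3c and 14 bp at Eif1ad, and it was 16 bp at Eif5a, whose sequence is not shown. The widest distances were 78 bp at Eif3m and 93 bp at Eif3d.

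Most genes with the highest peaks lacked the letters CCGGAAG in the window. Of the 5 genes with the highest pileup, Eif4e2 alone held them, and Eif4a2, Eif1, Eif2s1 and Eif4a3 did not. The shorter CGGAAG does occur, as CTTCCG, in the sequences shown of Eif4a2 and Eif4a3. The ETV5 summits of Eif1, 471 bp after its start, and of Eif2s1, 431 bp before its start, lay outside the window. The search therefore did not cover the sequence at those summits. The ETV5 pileup at the start had a median of 55.5 at the 16 genes with the motif and 45 (quartiles 27 to 97) at the 25 without, a difference inside the spread of either set. Over all genes the medians were 55 with the motif and 26 (quartiles 16 to 41) without.

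**Figure D5:**
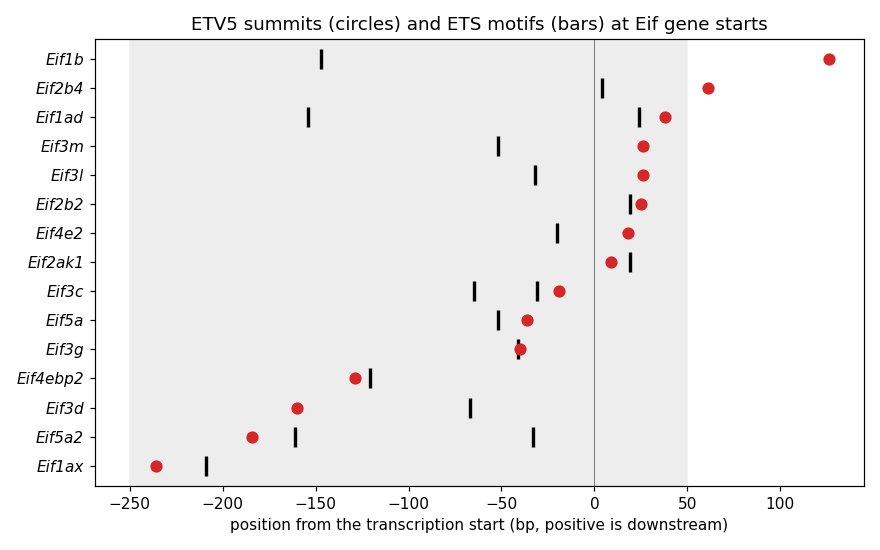
ETV5 summits (red circles) and centres of the ETS motif (black bars) at 15 genes with a motif in the window of the reference start, in bp from that start, positive downstream. Grey marks the window searched, from 250 bp before to 50 bp after the start. At Eif3g circle and bar coincide, and at Eif1b they are farthest apart, 273 bp.

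Other genes of the translation machinery gave similar values. All 37 of a list of regulators, elongation and release factors had both ETV5 and H3K4me3, against 56.9% of all protein-coding genes. Among all genes with H3K4me3, 95.2% had ETV5. Median pileups over the 37 were 43 for ETV5 and 305 for H3K4me3. The 3 highest exceeded every initiation factor gene: Bzw1, an eIF5 mimic, had an ETV5 pileup of 306 (273 to 342), Dohh, which makes the hypusine of eIF5A, had 293 (260 to 329), and Eef1d, an elongation factor subunit gene, had 249 (219 to 282), although the last peak was nearest to Tigd5.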

How the data were processed

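Libraries were grouped by the antibody in their labels, with 1 chromatin immunoprecipitation library for ETV5 and 1 for H3K4me3. The input sample is not analysed here, as no file of it was held. The authors called peaks in each library separately. The submitters' processing notes name MACS2 (2.1.0.20150420) as the caller, with a q-value threshold of 0.05 and at most 1 read kept per position, per the file headers. No aligner is named in the sources used here. The ETV5 list was made from 5715049 reads of 75 bp against 27495486 input reads, and the H3K4me3 list from 34907608 reads of 50 bp against 44758677, per the file headers. The input named for ETV5 differs in name from the labelled input sample, and that named for H3K4me3 matches it. The greater depth of H3K4me3 gives its pileups the smaller relative counting error.

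The pileup signal is the count of fragments at the summit, deposited by the authors, and 100% of values were whole numbers. The fold ratio is the authors' deposited enrichment over local input after adding 1 to each. Of the −log10 p and −log10 q values, which the authors also deposited, only q was used, as a filter. The labels name build mm9, but scaffold names in the files are those of GRCm38 and a GRCm38 start lies within 1 kb of 62.5% of H3K4me3 summits, so coordinates are given as GRCm38. Peaks on scaffolds or mitochondrial DNA, 9 of ETV5 and 5 of H3K4me3, were left out.

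Peaks were assigned to each protein-coding gene of the GRCm38.p6 RefSeq table within 5 kb, and the highest pileup of each gene was used. Positions from a start used the promoter table, with an entry for 17492 of 21887 genes, and the start nearest to the ETV5 summit. Assignment was checked with bedtools 2.31.1, which gave the same 34739 ETV5 and 18834 H3K4me3 gene and peak pairs, and the steps were tested on simulated data. Python 3.11.15, numpy 2.4.6, pandas 2.3.3, scipy 1.17.1 and matplotlib 3.10.9 were used. With 1 library per antibody there was no test and no p-value.

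The members, role groups and gene lists were chosen with earlier results of these data known. Named in full are the 2 genes of highest ETV5 pileup per role group, the 5 highest and 5 lowest, those lacking either mark, the 3 longest H3K4me3 peaks, those whose peak is nearest to another gene and the 3 highest of the other translation genes. Promoter sequences are those of the 4 highest ETV5 pileups at a start and of up to 3 genes with H3K4me3 and no ETV5 there. Sequences of genes with a motif near the summit, and other genes with values, were added after the values were seen. Alternatives were the window, peak filters, assignment to the nearest gene, the overlap and the motif letters.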

Additional observations from a re-analysis of the deposited data

How the results depend on the processing

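No paired analysis was possible because each antibody had 1 library. Of 31 alternative values of the counts, medians and motif share, 30 stayed close to the main value. The limit for counts was wide: it took in 41 genes with both marks in place of 51, and 23 with a shorter motif in place of 16. The genes sharing their highest ETV5 peak, 20 of 51, became 14 with 1 kb around the other gene. They became 27 when all annotated genes were counted. Over windows of 1 and 20 kb, a −log10 q-value or fold of at least 10, the summit in place of the whole peak and assignment to the nearest gene, ETV5 was called at 44 to 52 genes, H3K4me3 at 47 to 54 and both at 41 to 52, all lowest under assignment to the nearest gene. The shares of all protein-coding genes under these settings were not computed, so the excess over all genes was not tested there. The median ETV5 pileup was 45 to 57.5 over the windows and assignments. The exception was the share of windows with the motif: the longer CCGGAAGT was found at 8 of 44 genes, 18.2%, and at 5.69% of all genes, while CGGAAG was found at 23, 52.3% against 23.5%. With 1 start per gene, an alternative chosen after seeing the data, the motif was found at 15 of 44, 34.1% against 12.5%. Of the pileups of single genes, 41 stayed the same under assignment to the nearest gene, 3 moved (Eif2ak4, Eif4e3 and Eif5b) and 7 had no value. The lowest ETV5 pileup called near these genes was 6, at a lesser peak of Eif1ad, with an interval from 2.2 to 13.1 fragments. The absence of a call at Eif2s3y, Eif2ak2, Eif2b3, Eif3j2 and Eif4a3l1 does not show an absence of ETV5.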

Other observations

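Eif loci that are not protein-coding lay outside the set. The gene table lists 12 of them, 11 pseudogenes and the lncRNA Eif2c5, and 1 of the 12 had peaks within 5 kb. This was Eif2s3x-ps1 on chromosome 15 (75966946 to 75968565), with an ETV5 pileup of 22 (13.8 to 33.3) and an H3K4me3 pileup of 285 over 1111 bp. The ETV5 summit lay 508 bp outside the locus and 50 bp from Zfp707.

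The local input background plus 1, computed as the pileup plus 1 over the deposited fold, stood out at Eif4enif1. For H3K4me3 it was 28.7 fragments there, the highest over all 13085 genes with a peak, where the median was 6.38, and the next highest among the initiation factor genes was 10.4 at Eif2ak2. For ETV5, called against an input of another name, it was 3.99 at Eif4enif1, the highest of the 51 genes, whose median was 2.25. The peak of Eif4enif1 lies within 5 kb of Sfi1 and Gm51877. Its fold, 9.52 for ETV5 and 9.67 for H3K4me3, was below 10 for both marks, so it was lost from both lists when a fold of at least 10 was required, although its H3K4me3 pileup was 277 (245 to 312).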
